A study of Mus musculus with 8 samples.

Results

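The major urinary protein (Mup) genes studied here are Mup1, Mup2, Mup3, Mup6, Mup18 and Mup21, 6 of 22872 genes with a symbol on the array, measured by 8 of 56413 probes. They were chosen by their measured difference between high-fat diet and chow at 12 weeks, where they hold most of the largest decreases, so their values in that comparison are a description and carry no test. All 8 probes passed the filter on dim probes, since each was well above background on both arrays of the 12-week chow group, and Mup6 passed through that group alone. A further 6 probes measure 5 other genes of the family (Mup4, Mup5, Mup17, Mup19 and Mup20) and are given beside them.

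The cells came from C57BL/6 male mice, 6 weeks old when feeding began, that received chow or a diet with 60% fat for 12 or 24 weeks. They were the plastic-adherent, passaged fraction of abdominal subcutaneous fat, which the labels call adipose-derived mesenchymal stem cells. The 4 groups are called C12 and C24 after 12 and 24 weeks of chow, and HF12 and HF24 after as long on the fat diet, and each has 2 one-colour arrays. No source used here says that the arrays of a group came from separate mice or cultures. The spread behind a p-value is that between the 2 arrays of a group, pooled over the 4 groups, and may thus be technical. Position on the single slide cannot be told apart from the groups, since its rows follow feeding time and its columns follow diet.

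Major urinary proteins are small secreted lipocalins, barrel-shaped proteins with a cavity that binds hydrophobic molecules. In the mouse they are made mainly by the liver, where pulses of growth hormone acting through its receptor and the transcription factor STAT5 drive their transcription, and they leave in the urine carrying pheromones. Related copies are made in lacrimal, salivary and nasal glands, and Mup20, called darcin, is itself a male pheromone. Circulating Mup1 has been linked to glucose and lipid handling in obese mice.

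The genes lie in 1 cluster on chromosome 4, where the RefSeq table for GRCm38.p6 lists 22 numbered Mup genes. Of these 22 genes, 11 were matched to probes. Mup3 and Mup21 are neighbours at the end of the cluster, in places 21 and 22 along the chromosome, while Mup6, Mup2, Mup1 and Mup18 take places 2, 4, 7 and 17. RefSeq promoter windows, which run from 250 bases before the annotated start to 50 after it, were given for 5 of the 6 genes. The stretch just upstream of the start is shown for these 5 because it shows how alike the copies are there. It runs 5′ to 3′ on the gene's strand up to the base before the start, in GRCm38.p6 coordinates, with the letters TATATAA in capitals.
Mup6 (chr4:60003392-60003480, plus strand): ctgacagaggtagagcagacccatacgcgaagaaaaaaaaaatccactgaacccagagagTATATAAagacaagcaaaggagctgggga
Mup2 (chr4:60139857-60139943, minus strand): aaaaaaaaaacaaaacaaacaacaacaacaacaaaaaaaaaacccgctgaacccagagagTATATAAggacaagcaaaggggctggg
Mup18 (chr4:61674095-61674182, minus strand): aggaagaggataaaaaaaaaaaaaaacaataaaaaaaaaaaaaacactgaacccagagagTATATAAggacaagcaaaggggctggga
Mup3 (chr4:62087318-62087388, minus strand): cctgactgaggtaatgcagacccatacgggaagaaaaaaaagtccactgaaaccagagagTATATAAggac
Mup21 (chr4:62150842-62150909, minus strand): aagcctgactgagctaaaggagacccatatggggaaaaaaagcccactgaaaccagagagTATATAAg

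Every one of the 5 stretches holds TATATAA, a motif chosen after the sequences were read, which begins 27 to 29 bases before the annotated start in Mup2, Mup6 and Mup18 but 11 in Mup3 and 8 in Mup21. Searched on both strands of the 250 upstream bases, TATATAA occurred in 5 of these 5 promoters and in 3.04% of all 32851 promoters of the table. Upstream of it lies a run of A, up to 15 bases long in Mup18 and up to 7 in Mup21. Neither TTCNNNGAA, the form of a STAT site, nor TTGCNNAA, the form of a C/EBP site, was found in the 5 windows, against 7.02% and 9.56% of all promoters. That says only that these letters are not in these windows.

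The 250 upstream bases of the 5 genes were aligned locally in pairs, so that not all bases enter. With gaps left out the aligned bases were 84.8% to 97.5% identical over 10 pairs, with a median of 88.5%. Mup2 and Mup18 were the most alike at 97.5%, and Mup6 and Mup21 the least at 84.8%. Mup3 and Mup21 were 93.9% identical to each other. With gaps counted, Mup2 and Mup18 were still the most alike, at 93.6%. The least alike were then Mup2 and Mup21, at 72.3%, with 41 gap columns among 231 aligned columns. These bases lie outside the transcripts that the probes bind. Transcripts of the family are known to be near-identical too, so a value below belongs to a probe rather than surely to 1 gene. No probe or transcript sequence was compared, and the number of copies behind each signal was not tested.

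**Figure D1:**
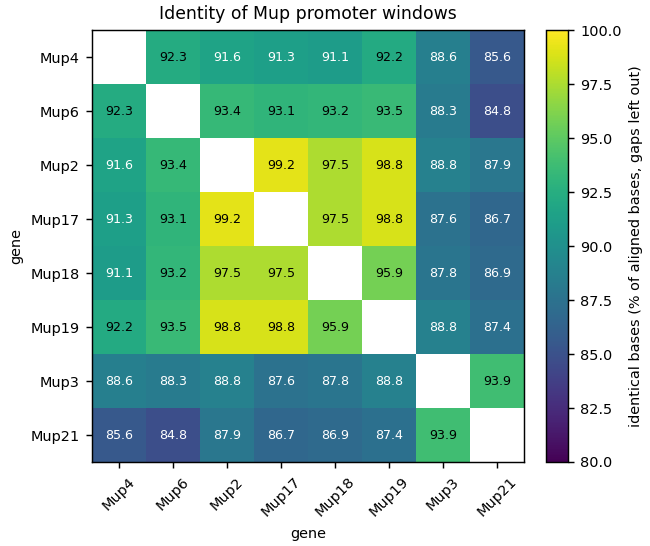
Identity in local alignments of the 250 bases upstream of the start, between pairs of 8 Mup genes on the array with a RefSeq promoter. Values are in percent of aligned bases with gaps left out. The 5 member genes are Mup6, Mup2, Mup18, Mup3 and Mup21; Mup2 and Mup18 share 97.5%, while Mup3 and Mup21 share 93.9% with each other and at most 88.8% with any of the rest.

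Detection differed with feeding time. Signals well above background were flagged by the Agilent Feature Extraction software. Probes with that flag made up 65.1% to 67.2% of each 12-week array and 57.6% to 62.4% of each 24-week array. The lowest processed intensity with that flag was 17.7 to 19.4 at 12 weeks and 26.5 to 33.8 at 24 weeks, so that a dim signal passed less easily in the 24-week groups. Of 18 stromal progenitor markers, 17 were matched to probes, and those 17 were well above background on both arrays of every group. A level below is the log2 processed intensity minus the 75th percentile of its array, and a fold is taken from group means of that level. Levels are compared between arrays for 1 probe and never between probes.

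In cells of mice fed chow for 12 weeks the Mup probes were bright. Mup1, a urinary form made in liver, had processed intensities of 21083 and 20609 on the C12 arrays, 554 and 526 on the HF12 arrays, 6.82 and 6.18 on the C24 arrays and 7.25 and 6.38 on the HF24 arrays. Only the 12-week arrays were well above background, and the 4 values there fall into groups that do not overlap. Before background subtraction the same probe read 21145 and 20142 on the C12 arrays, 597 and 566 on the HF12 arrays and 31.5 to 41.0 on the 24-week arrays. Its mean level was 4.46 ± 0.03 (SD, n = 2) in C12 and -0.85 ± 0.06 (SD, n = 2) in HF12, a 39.5-fold difference.

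Mup18, another copy of the cluster, read 18030 and 15672 in C12, 462 and 428 in HF12, and 6.06 to 7.53 on the 24-week arrays. The HF12 level was 38.6-fold below C12, and again no 24-week array was well above background. The brighter probe of Mup21 read 20178 and 19575 in C12, 553 and 517 in HF12, 13.4 and 14.6 in C24, and 7.80 and 6.93 in HF24. It was 38.0-fold lower in HF12 than in C12, with no array well above background at 24 weeks. The brighter probe of Mup3 read 1688 and 1566 in C12, 53.7 and 49.6 in HF12, and 5.47 to 6.93 at 24 weeks. Its HF12 level was 32.2-fold lower than C12, and it too was not well above background at 24 weeks.

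Mup2 differed from these in keeping a signal at 24 weeks. Its processed intensity was 11492 and 10242 in C12, 330 and 325 in HF12, 71.9 and 48.3 in C24, and 42.4 and 449 in HF24. All 8 arrays were well above background for this probe, and the HF24 arrays lay apart from each other. The HF12 level was 33.9-fold below C12, with levels of 3.51 ± 0.06 and -1.57 ± 0.10 (SD, n = 2 each).

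Mup6 was measured in 1 group only. It read 351 and 324 in C12, both well above background, and 4.41 and 11.2 in HF12, neither of them above it. Its HF12 level was at least 18.9-fold lower than C12, where at least means that each dim array counts at the lowest signal well above background. At 24 weeks its 4 values ran from 6.08 to 7.53, all below background.

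The second probes of Mup21 and Mup3 did not follow the first. The dimmer Mup21 probe read 286 and 274 in C12 and 53.4 and 46.4 in HF12, a 5.74-fold difference against 38.0-fold for the brighter one. The dimmer Mup3 probe read 43.8 and 38.3 in C12 and 46.3 and 38.0 in HF12, overlapping values whose means differed by 0.0028 ± 0.72 (log2, SE). Probes of 1 gene thus disagreed within these 2 genes, and Mup20 did the same, at 37.0-fold lower in HF12 by its brighter probe and 3.55-fold by its dimmer one.

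**Figure D2:**
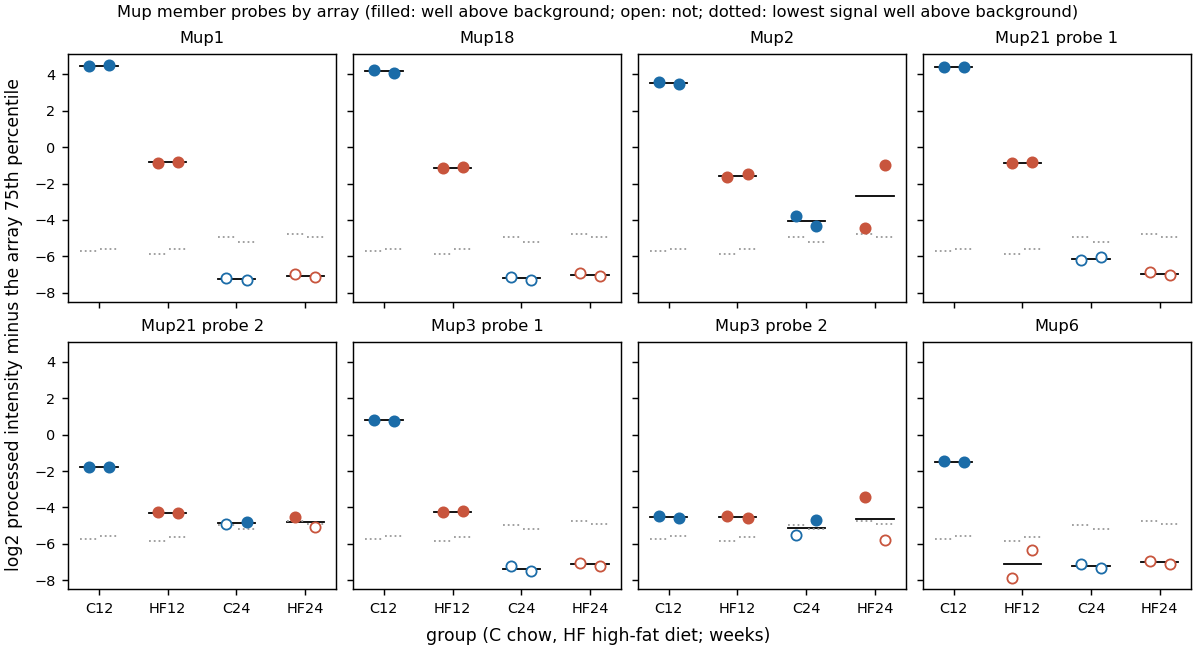
Level of each of the 8 Mup member probes on each array (vertical axis, log2 processed intensity minus the array's 75th percentile; horizontal axis, groups of 2 arrays; bars, group means). Filled points are well above background, open points are not, and dotted marks give the lowest signal well above background on that array; at 24 weeks 5 of the 8 probes have no filled point, and Mup2 has a filled point on every array.

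Of the 13 Mup probes measured in both 12-week groups, 10, of 10 genes, had a difference of -5 or below, and the other 3 were the dimmer probes of Mup3, Mup20 and Mup21. The 10 were 5 member probes (Mup1, Mup2, Mup18 and the brighter probes of Mup3 and Mup21) and 5 others (Mup4, Mup5, Mup17, Mup19 and the brighter Mup20 probe). Their HF12 levels lay 32.2-fold to 44.6-fold below C12, from Mup3 at -5.01 to Mup17 at -5.48 on the log2 scale, with a median of -5.26 and an SD between probes of 0.14, a spread that the limit of -5 narrows. In percent, HF12 kept 2.24% of the C12 signal for Mup17, 2.53% for Mup1, 2.57% for Mup5 and 3.10% for the brighter Mup3 probe. With all 10 put in order, neighbours differed by less than the larger of their standard errors, such as Mup1 at -5.30 ± 0.08 and Mup5 at -5.28 ± 0.25 (log2, SE). These errors pool all 4 groups and so do not measure the 12-week spread alone. For Mup5 the SD was 0.04 in C12 and 0.02 in HF12, but 0.58 in HF24, where it was below background.

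Of 36443 kept probes measured in both 12-week groups, 16 had a difference of -5 or below, and 10 of those 16 were Mup probes. Mup17 held place 1 from the lowest, Mup19 place 5, Mup1 place 6, Mup5 place 7 and Mup18 place 8. The dimmer Mup21 and Mup20 probes held places 144 and 292, and the dimmer Mup3 probe lay at 19403. Over all 37649 kept probes 20 (0.0531%) lay at -5 or below between measured means, a count that holds probes such as Mup6 with HF12 below background, where the difference is only a bound. The C12 and HF12 values did not overlap, with HF12 lower, for 7 of the 8 member probes, beside 36.5% of all probes. Over the 8 members the median 12-week difference was -5.16 (-5.05 with Mup6 at its bound), beside -0.018 for all probes. Since this comparison chose the members, nothing is read from these shares.

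On chow the same probes were also lower at 24 than at 12 weeks, and for most of them by more than the diet difference at 12 weeks, a comparison with which this one shares the C12 arrays. C24 lay at least 737-fold below C12 for Mup1, at least 703-fold for the brighter Mup21 probe and at least 595-fold for Mup18. These are lower bounds because C24 was not well above background. For Mup2, which was measured in both groups, C24 was 188-fold below C12. The brighter Mup3 probe was at least 57.5-fold lower and Mup6 at least 11.9-fold lower. The dimmer Mup21 probe was 8.54-fold lower and the dimmer Mup3 probe 1.48-fold lower, each with 1 of 2 C24 arrays well above background.

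The other copies gave values of the same kind. Mup19 was at least 991-fold lower in C24 than in C12, Mup17 at least 420-fold, Mup4, a form made in lacrimal and nasal glands, at least 323-fold, the brighter Mup20 probe at least 219-fold and Mup5 at least 84.5-fold. None of the 6 other probes was well above background on a C24 array. The C24 and C12 values did not overlap for 8 of 8 member probes, all lower in C24, beside 33.9% of all probes. The C12 arrays entered the choice of the members, so this difference is a description too.

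On high-fat diet the 24-week levels were also below the 12-week levels. HF24 lay at least 15.9-fold below HF12 for Mup1, at least 15.8-fold for the brighter Mup21 probe, at least 13.1-fold for Mup18 and at least 1.52-fold for the brighter Mup3 probe. The HF24 and HF12 values did not overlap for 5 of the 8 members, beside 37.6% of all probes that were lower in that way. For the 3 members measured in both groups the log2 differences were smaller, -1.14 ± 1.01 for Mup2, -0.51 ± 0.17 for the dimmer Mup21 probe and -0.074 ± 0.72 for the dimmer Mup3 probe (SE). These dimmer probes each had only 1 HF24 array well above background. Mup6 was below background on all 4 HF12 and HF24 arrays and has no value. For Mup1, Mup18 and the brighter probes of Mup3 and Mup21 the order was thus C12 above HF12 above the 24-week groups, which were below background, while for Mup2 the second HF24 array lay above both HF12 arrays.

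**Figure D3:**
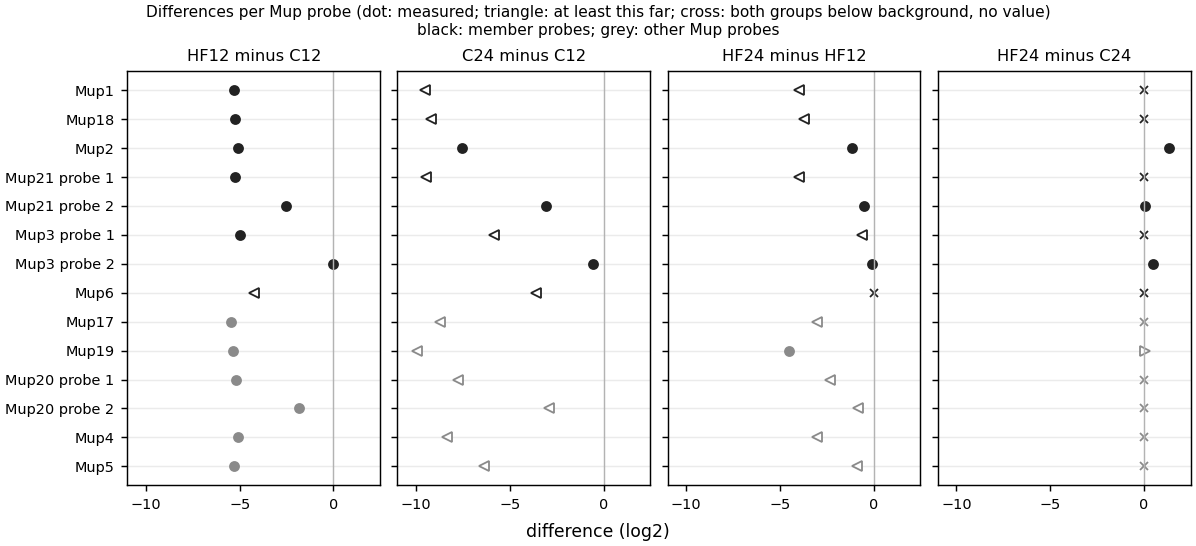
Log2 difference of each of the 14 Mup probes (rows; black for the 8 members, grey for the 6 others) in 4 comparisons (panels). Dots are measured differences, and crosses mark probes with both groups below background. Triangles are bounds, in which each dim array counts at the higher of its own value and its lowest signal well above background. In the HF12 panel 10 probes lie between -5.48 and -5.01 and 3 measured ones above them. Most probes of the last panel have no value, and the Mup19 triangle there, at 0.06, is from groups that overlap.

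The 24-week diet comparison is the 1 test of the members, and its differences come from arrays that their choice did not use. The test is still not independent of that choice. Its standard errors pool all 4 groups, and every member probe passed the filter on its C12 arrays. limma, fitted to all 37649 kept probes with Benjamini-Hochberg adjustment, called 1 of 8 member probes lower and 0 higher in HF24 than in C24, beside 17.2% of all probes called lower and 14.0% called higher. At an unadjusted p under 0.05 the counts were also 1 lower and 0 higher. The called probe was the brighter Mup21 probe, at -0.83 ± 0.08 (log2, SE, adjusted p = 0.0010). Its SD was 0.024 in C12, 0.040 in HF12, 0.100 in C24 and 0.108 in HF24, and all 4 enter that SE. All 4 of its 24-week values were below background, so that no fold is given. It is 1 of the 5 member probes for which neither 24-week group was well above background. Differences among such values rest on signal that the software's flag does not set apart from background.

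The 3 probes with a 24-week signal did not pass the test. The dimmer Mup21 and Mup3 probes were well above background only on C24 replicate 2 and HF24 replicate 1 of the 24-week arrays. Mup2 differed by 1.33 ± 1.01 (log2, SE, adjusted p = 0.360), the dimmer Mup21 probe by 0.063 ± 0.17 (adjusted p = 0.810) and the dimmer Mup3 probe by 0.49 ± 0.72 (adjusted p = 0.639), all from limma. The HF24 replicates were far apart for 2 of them, by 3.42 for Mup2 with replicate 2 higher and by 2.36 for the dimmer Mup3 probe with replicate 1 higher, on the log2 scale. Only 51 probes (0.135%) and 135 probes (0.359%) differed by as much between these arrays, whose median difference was 0.085. Without HF24 replicate 1, Mup2 was called higher in HF24, at 3.04 (adjusted p = 0.0017), and without HF24 replicate 2 its difference was -0.38 (adjusted p = 0.291). Without HF24 replicate 2, which was not well above background for them, the dimmer Mup21 and Mup3 probes differed by 0.35 and 1.67.

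Other lipocalins were measured in the same cells. Of 21 listed, 15 were tested, and limma called 7 lower and 1 higher in HF12 than in C12, beside 16.0% of all probes called lower and 14.1% called higher. Their median difference was -0.36, beside -0.018 for all probes. Rbp4, which carries retinol in blood, fell by 2.27 ± 0.06 (log2, SE, adjusted p under 0.05, as for each change named below unless a p is given). Its levels were 4.36 and 4.34 in C12 against 2.06 and 2.10 in HF12, which do not overlap. Apod, a lipocalin that binds arachidonic acid, fell by 1.53 ± 0.06, and Lcn2, which binds bacterial siderophores, fell by 1.04 ± 0.11. Ambp, the precursor of alpha-1-microglobulin and bikunin, was at least 17.7-fold higher in HF12, since both C12 arrays were below background (4.86 ± 0.23 between measured means, log2, SE). At 24 weeks 5 of the 15 were called lower and 1 higher, beside 17.2% and 14.0% of all probes. Rbp4 stood at -0.64 ± 0.06 and Ambp at 2.25 ± 0.23. The 12-week higher count was 2 without C12 replicate 2.

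The growth hormone and STAT5 genes, which act upstream of Mup transcription in liver, were all 14 tested. At 12 weeks 7 were called lower and 3 higher in HF12, beside 16.0% and 14.1% of all probes, with a median of -0.31. Ghr, the growth hormone receptor, fell by 1.58 ± 0.06, from levels of 4.04 and 4.10 in C12 to 2.45 and 2.53 in HF12. Cish, a feedback inhibitor induced by STAT5, fell by 1.42 ± 0.07, and Socs2, another such inhibitor, by 0.46 ± 0.05. Prlr, the prolactin receptor, fell by 1.14 ± 0.10. Stat5a differed by -0.085 ± 0.062 (adjusted p = 0.349). Stat5b fell by 0.51 ± 0.10, a call that did not hold when 1 array was left out (adjusted p = 0.0518 without the first C12 array, and 0.0797 and 0.0547 without the first and the second HF12 array). Ptpn6, a phosphatase of blood cells that acts on this pathway, rose by 3.90 ± 0.09. The higher count was 1 without any one of C12 replicate 2, HF12 replicates 1 and 2 and HF24 replicates 1 and 2.

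At 24 weeks 5 of these 14 genes were called lower and 1 higher, beside 17.2% and 14.0% of all probes, with a median of 0.04. Ghr fell by 0.57 ± 0.06 and Socs2 by 0.64 ± 0.05. Cish differed by -0.22 ± 0.07 (adjusted p = 0.0539), Prlr by 0.14 ± 0.10 (adjusted p = 0.321) and Stat5a by 0.20 ± 0.06 (adjusted p = 0.0551). Igf1, a growth hormone target, differed by 0.25 ± 0.06 at 12 weeks (adjusted p = 0.0237) and -0.22 ± 0.06 at 24 weeks (adjusted p = 0.0330). Each of its calls was lost without any one array of the groups compared. The lower count at 24 weeks was 2 or 3 when any one 24-week array was left out.

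Of 16 regulators of liver and adipose transcription, 11 were tested. At 12 weeks 8 were called lower and 0 higher, beside 16.0% and 14.1% of all probes, with a median of -0.71. At an unadjusted p under 0.05 the counts were 9 lower and 0 higher. Ppara, a fatty acid receptor that drives fat burning in liver, fell by 1.71 ± 0.09, and Pparg, the regulator of adipocyte formation, by 1.38 ± 0.05. Ppargc1a, a coactivator of mitochondrial genes, fell by 2.26 ± 0.21. Zhx2, a regulator of hepatic genes that include Mup genes, differed by -0.47 ± 0.14 (adjusted p = 0.0527). The liver factors Hnf4a, Onecut1, Cux2 and Foxa2 were not kept, since no group had both arrays above background. At 24 weeks 2 of the 11 were called lower and 1, Pparg at 0.23 ± 0.05 (adjusted p = 0.0237), higher, beside 17.2% and 14.0% of all probes. The higher count was 0 and Pparg was not called without any one 24-week array, and the lower count was 1 without C24 replicate 1 or HF24 replicate 1.

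Markers of the cell types that could carry Mup transcripts were set beside these values. Of 23 hepatocyte markers 13 were tested, with 3 called higher and 3 lower in HF12, beside 14.1% and 16.0% of all probes. Their summed level, on a scale where an array's 75th percentile is 1, ran from 4.58 to 5.68 over the 8 arrays, of which Apoa2 alone, an apolipoprotein named after its value was seen, gave 3.08 to 3.83. Without Apoa2 the sum was 2.22 to 2.25 in C12, 1.95 to 2.02 in HF12, 1.319 to 1.4998 in C24 and 1.07 to 1.16 in HF24. Alb, the main plasma protein of hepatocytes, was not well above background on any C12, HF12 or C24 array, and Ttr on none of the 8. Apoa1, Apob, Fgb and Fgg were likewise not kept. The hepatocyte markers Serpina3k and Hpx, which other tissues can also make, fell by 2.06 ± 0.10 and 2.04 ± 0.11 at 12 weeks, and Ahsg by 0.79 ± 0.18. The 3 called higher at 12 weeks were Afp, which rose by 3.06 ± 0.18, F2, by 0.52 ± 0.07, and F9. For F9 the rise was at least 1.23-fold, since C12 was below background. At 24 weeks the list had 3 called lower and 0 higher, beside 17.2% and 14.0% of all probes, against 5 and 2 at an unadjusted p under 0.05, and the higher count was 1 without C24 replicate 2 or HF24 replicate 1.

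The mature adipocyte markers moved with the Mup probes at 12 weeks. Of 22 tested, 19 were called lower and 1 higher in HF12, beside 16.0% and 14.1% of all probes, with a median of -2.49. Their summed level was 1264 to 1267 in C12, 286 to 302 in HF12, 155 to 158 in C24 and 122 to 124 in HF24, lowest in the 24-week groups, where Mup1 was below background. Adipoq, which encodes adiponectin, fell by 3.33 ± 0.08, Retn, which encodes resistin, by 4.30 ± 0.10 and Cyp2e1, a cytochrome of liver and fat, by 5.02 ± 0.09. The scavenger receptor Cd36 was the 1 marker that rose, and it was chosen for that after its value was known. It rose by 1.43 ± 0.08. In RNA from a mixed population, fewer cells of a type and less RNA per cell cannot be told apart. The part of adipocyte content in the Mup differences was not tested.

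Of the 22 adipocyte markers, 19 were well above background on both C24 arrays and 15 on both HF24 arrays. Adipoq, whose C24 level was 581-fold below C12, was still well above background on both C24 arrays, at -2.52 and -2.38, and not on the HF24 arrays, at -5.83 and -5.77, which puts HF24 at least 5.25-fold lower, with measured means that differed by -3.35 ± 0.08 (log2, SE). Plin1, a lipid droplet coat protein, fell by 1.57 ± 0.09, and Cfd, which encodes the protease adipsin, was at least 13.8-fold lower in HF24. In all, 9 of the 22 markers were called lower and 3 higher, beside 17.2% and 14.0% of all probes, with a median of -0.11. The 3 higher ones, named after their values were seen, were the lipase Pnpla2 at 0.49, the acyl-CoA synthetase Acsl1 at 0.34 and the glucose transporter Slc2a4 at 0.25. The higher count was 1 when HF12 replicate 1 or 2, C24 replicate 2, or HF24 replicate 1 or 2 was left out, and at 12 weeks it was 2 without C12 replicate 2.

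Macrophage markers moved the other way. Of 18 tested, 17 were called higher and 0 lower in HF12, beside 14.1% and 16.0% of all probes. At an unadjusted p under 0.05 the counts were the same. The median was 3.57, beside -0.018 for all probes. Their summed level was 113 on both C12 arrays, 706 to 714 in HF12, 264 to 268 in C24 and 527 to 533 in HF24. At 24 weeks 14 were called higher and 1 lower, beside 14.0% and 17.2% of all probes. The lower count was 0 without C24 replicate 2 or either HF24 array. The part of macrophage content in the Mup differences was not tested.

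Stromal progenitor markers counted 10 called lower and 2 higher of 17 at 12 weeks, and 6 lower and 1 higher at 24 weeks. Of all probes, 16.0% were called lower and 14.1% higher at 12 weeks and 17.2% and 14.0% at 24 weeks, for this list and those that follow. Their summed level ran from 948 to 1180 over the 8 arrays. The 12-week higher count was 1 without any one array, and the 24-week higher count was 0 without C24 replicate 2 or either HF24 array. Of 16 gland and mammary epithelium markers 8 were tested, with 1 called lower and 2 higher at 12 weeks and 5 lower and 0 higher at 24 weeks. At an unadjusted p under 0.05 the counts were 1 lower and 6 higher at 12 weeks and 7 lower and 0 higher at 24 weeks. The lower gene at 12 weeks was Amy1, the salivary amylase, which fell by 2.42 ± 0.11. The 2 higher genes were Krt19 at 0.43 ± 0.07 and Aqp5 at 0.28, and the median of the list was 0.32. At 24 weeks the median was -1.04, with the largest falls in Krt5 at -3.52 ± 0.13 and Krt14 at -3.25 ± 0.20. The casein gene Csn2 was not kept, and the 12-week higher count was 0 without HF12 replicate 1. Of the partners of pheromone signalling 2 were tested, both called lower and 0 higher at 12 weeks and neither called at 24 weeks, with unadjusted counts that were the same. The lower count was 1 without C12 replicate 1.

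**Figure D4:**
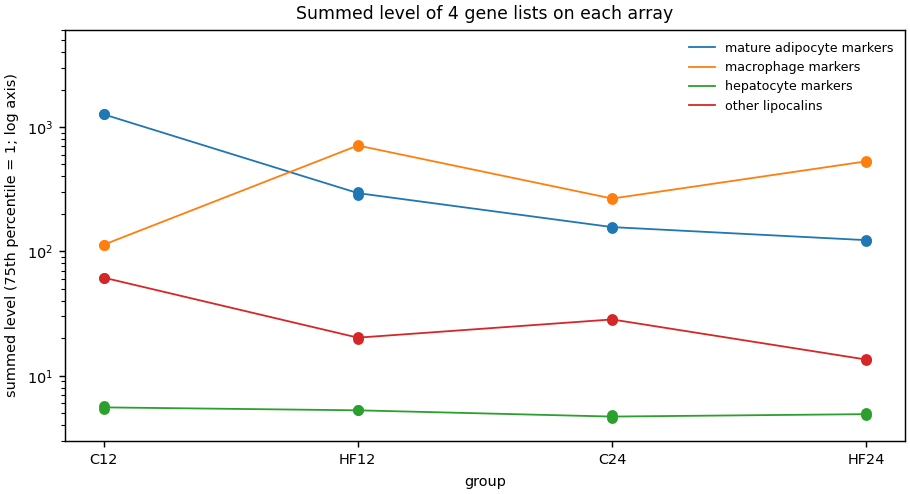
Summed level of 4 gene lists on each array (vertical log axis, in units of the array's 75th percentile; points, the 2 arrays of a group; lines join group means on the log scale). Adipocyte markers go from 1264 to 1267 in C12 down to 122 to 124 in HF24, hepatocyte markers, most of whose sum is Apoa2, lie between 4.58 and 5.68, and macrophage markers are highest in HF12; sums are to be read within a list, not between lists.

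The genes with the profile nearest to the mean of the 8 member probes were sought among 16721 genes with a symbol outside the family. Likeness was the root mean square difference over the 8 arrays after each profile was centred on its own mean, on the log2 scale, and its median over all candidates was 2.98. Slc7a10, an amino acid transporter, was nearest at 0.115, then Tmem45b, a membrane protein, at 0.197. A530016L24Rik followed at 0.298, Cidec, a lipid droplet protein, at 0.301 and B3galt2, a galactosyltransferase, at 0.336. Ces1d, Acvr1c, Bpifa6, D630039A03Rik and Pnpla3 completed the 10, at 0.418 to 0.561.

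Slc7a10 was 21.6-fold lower in HF12 than in C12 and at least 36.9-fold lower in C24, where it was not well above background. Ces1d, a carboxylesterase, was 30.0-fold lower in HF12, and D630039A03Rik 37.7-fold. Of the 10 genes, Cidec alone was measured in both chow groups, with C24 90.3-fold below C12. The others have only a bound there, and values below background have no order, so likeness at 24 weeks is likeness in being dim. Cidec is also one of the adipocyte markers.

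**Figure D5:**
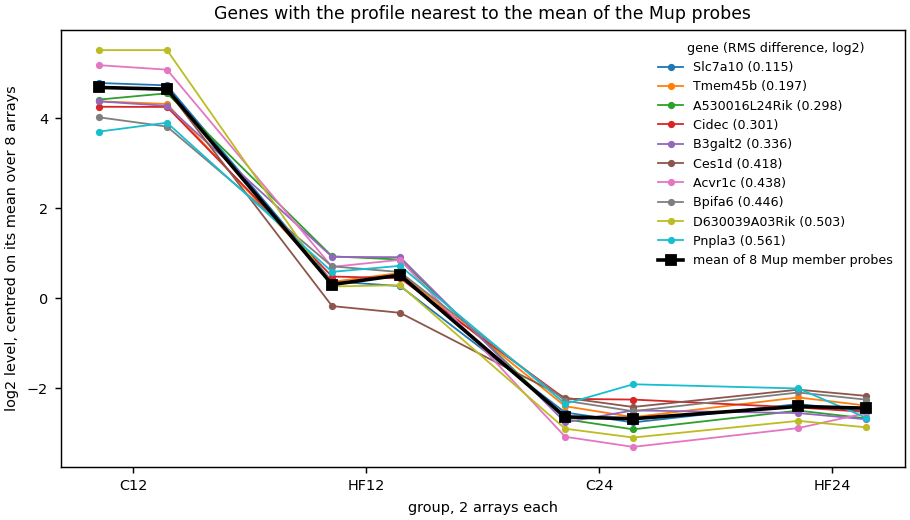
Level of the 10 genes nearest to the mean of the 8 Mup member probes (coloured lines, with the root mean square difference of each in the legend) and that mean (black squares) on the 8 arrays, each centred on its own mean (vertical axis, log2). The lines fall from C12 through HF12 to the 24-week groups, with Slc7a10 closest at 0.115.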

How the data were processed

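Total RNA was hybridised to 8 one-colour (Cy3) Agilent 8x60K mouse arrays on 1 slide. The deposited processed intensity is a spot's brightness after background subtraction and detrending within its array by Agilent Feature Extraction 11.0.1.1, per the file headers, and the deposited median intensity is unprocessed. The authors also deposited a table of log2 values (38346 probes matched), used as an alternative. Outlier-flagged spots were left out (192 probes lost), spots of a probe averaged, and each array's 75th percentile subtracted from its log2 processed intensity. Probes well above background on both arrays of at least 1 group (37649 of 56413) were tested with limma 3.58.1 in R 4.3.3, 1 mean per group over 8 arrays (4 residual and 1.95 prior degrees of freedom), two-sided, at an adjusted p under 0.05. The fit was tested on simulated data.

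Accessions were matched to RefSeq symbols (1 symbol for 58.3% of probes). The headers name build mm9 and the RefSeq tables GRCm38.p6, so coordinates are given only with RefSeq sequences. A bound sets each dim array at the higher of its own value and its lowest signal well above background. The members and lists were chosen with earlier results of these data known. Named genes were all Mup probes, up to 4 called genes per list by smallest p in each comparison, 16 genes fixed by name, and the 10 nearest profiles; a list gene counts by its brightest kept probe. Promoters were aligned locally with Biopython 1.88, and matplotlib 3.10.9 drew the figures. Replicate numbers do not pair the samples: the deviations of same-numbered arrays correlated at -0.091 to 0.155 between groups.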

Additional observations from a re-analysis of the deposited data

Results flagged for a closer look

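Of 120 list genes tested, 25 had diet groups that separated in opposite directions at the 2 feeding times, and the difference between times was not tested for any of them. Separation is common with 2 arrays per group: at 12 weeks 36.5% of all probes were lower in HF12 without overlap. The share separating in opposite directions was not worked out over all probes, so nothing is read from these counts. The 7 called at both times were Pparg (-1.38 at 12 weeks and 0.23 at 24 weeks, log2), Igf1 (0.25 and -0.22), F2 (0.52 and -1.69), Pnpla2 (-2.44 and 0.49), Slc2a4 (-2.39 and 0.25), Acsl1 (-2.54 and 0.34) and Aqp5 (0.28 and -0.64). F2, Pnpla2, Slc2a4, Acsl1 and Aqp5 were named after their values were seen. Of the 25, Prlr and Stat5a are also named in the report and were not called at both times. Prlr stood at -1.14 at 12 weeks and 0.14 at 24 weeks, and Stat5a at -0.085 and 0.20.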

How the results depend on the processing

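Of the Mup medians, that of the 12-week diet difference (-5.16) became -4.35 with normexp (on the deposited median signal, since no mean signal was given) and quantile normalization, -5.08 with only probes above background on all 8 arrays (Mup2 alone) and -5.26 with 1 probe per gene. The chow time difference (-7.84) became -5.60, -7.55 and -9.31 in the same order, and -8.00 with quantile normalization alone. The high-fat time difference (-2.02) became -0.72, -1.14 and -4.38. With dim groups at their bounds the 3 medians were -5.05, -6.70 and -1.14. Leaving out 1 array gave, in that order, -5.21 to -5.002, -8.03 to -7.64 and -2.83 to -1.97. The count of members called lower at 24 weeks was 0 on the all-array filter, and the higher count ran from 0 to 2 with 1 array left out. At 24 weeks the difference changed sign with normexp for Mup1 (-0.041), Mup18 (-0.020), Mup6 (-0.11), Cyp2e1 (0.032) and Stat5b (-0.019), and with quantile normalization for Mup1 (-0.042), Cyp2e1 (0.0079) and Stat5b (-0.021). With 1 array left out it ran from -0.38 to 3.04 for Mup2, from -0.22 to 0.35 for the dimmer Mup21 probe, from -0.69 to 1.67 for the dimmer Mup3 probe and from -0.049 to 0.11 for Stat5b. The causes were not tested.

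Over all probes, the 5265 called higher at 24 weeks became 3505 without the dim filter, 3488 with only the 2 groups and 2933 to 5175 with 1 array left out. At 12 weeks leaving out 1 array gave 3275 to 5040 higher, against 5307, and 3312 to 5799 lower, against 6017. The replicate block, whose numbers do not pair the samples, left the members at 1 lower and 0 higher at 24 weeks and gave 4316 higher and 5978 lower over all probes. Signal near background limits 5 of the 8 member probes at 24 weeks.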
